A study of Mus musculus with 18 samples.

Results

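The cytosolic ribosomal protein genes were taken from the deposited table by symbol: Rpl or Rps followed by a number with optional a, x, p or l letters, plus Rplp0, Rplp1, Rplp2, Rpsa and Fau, leaving out pseudogene names with -ps and the Rps6k and Rps19bp genes. The rule found 85 of the 56551 genes in the table, of which 49 encode large subunit proteins, 33 small subunit proteins and 3 the stalk of the large subunit. By annotation 82 were protein-coding, and 77 were the usual gene for their protein while 8 were paralogs of another member. The annotation of the genome build GRCm38 placed them on 20 chromosomes, with most (14) on chromosome 7. The rule leaves out genes such as Rps3a1, Rpl22l1 and Rpl7l1, whose symbols are outside this pattern. Rpl32l and Rpl6l, both processed pseudogenes, stayed near 0 TPM and were not tested, which left 83 members.

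RNA was sequenced from mouse embryonic stem cells of 6 genotypes, with 3 libraries each and 18 in all. The mutant groups were Ring1a-KO (Ring1a-/-), Ring1b-KO (Ring1b-/-), Ring1a/b-dKO (both genes deleted), Pcgf-4KO (Pcgf1/3/5/6-/-) and Pcgf-6KO (Pcgf2-/- and Pcgf4-/- in addition to these), and the controls were WT cells. The labels name no clone, age, treatment or culture. Separate cultures for the replicate libraries are not stated either, and p-values measure only the spread between these libraries, which may be technical. Expression is given in TPM, a transcript share corrected for transcript length that sums to 1000000 in each library. TPM keeps no read depth, so no counting interval can be given.

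RING1A and RING1B are the alternative catalytic subunits of Polycomb repressive complex 1, which ubiquitinates histone H2A at silent genes, and each complex contains one of the PCGF proteins. The cytosolic ribosome has a small subunit, which decodes mRNA, and a large subunit, which joins amino acids. Most of its proteins are made from a single active gene, alongside many silent processed copies in the genome. The mRNAs begin with a run of pyrimidines, the TOP motif, through which the mTORC1 kinase controls their translation.

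The targeted genes and cell markers gave the following check of the labels. Pcgf6 was at 0 to 0.1 TPM in Pcgf-4KO and 9.73 to 11.2 TPM in Pcgf-6KO libraries, against 52.8 to 53.3 TPM in WT. Rnf2, which encodes RING1B, averaged 49.4 TPM in Ring1b-KO and 22.8 TPM in Ring1a/b-dKO, against 71.3 TPM in WT. Ring1, which encodes RING1A, was at 2.86 to 5.46 TPM in Ring1a-KO, below every WT library (7.10 to 7.42), but at 2.74 to 9.40 TPM in Ring1a/b-dKO, where 1 library lay above WT. Pcgf5 averaged 14.5 TPM in Pcgf-4KO and 22.1 TPM in Pcgf-6KO, above 9.55 TPM in WT, and Pcgf3 averaged 11.8 and 12.4 TPM in these groups against 13.2 TPM. The labels do not name the deleted exons, and a value for the whole gene cannot show their loss. The summed TPM of 10 embryonic stem cell markers, all of which passed the filter on low values and none of which was at 0 throughout a group, was 4326 to 4659 in Ring1a-KO, 7678 to 8323 in Ring1b-KO, 2953 to 3274 in Ring1a/b-dKO, 3854 to 3981 in Pcgf-4KO and 1928 to 2358 in Pcgf-6KO, against 4632 to 4698 in WT. That of 8 fibroblast markers, 3 of which passed the filter, was 330 to 364, 211 to 220, 119 to 124, 83.7 to 84.1 and 72.2 to 108 TPM in the same order, against 287 to 296 TPM in WT, with Lum listed at 0 in every Ring1b-KO and Ring1a/b-dKO library. Single markers did not all follow these sums. Of the 10 stem cell markers, limma (described below) called 6 higher and 4 lower in Ring1b-KO and 5 and 4 in Pcgf-4KO. It called 3 higher and 2 lower in Ring1a-KO, 2 and 8 in Ring1a/b-dKO and 1 and 9 in Pcgf-6KO. Of the 3 tested fibroblast markers, 2 were called higher and 1 lower in Ring1b-KO, and 1 higher and 1 lower in Ring1a/b-dKO. The shares of all genes called are given below. The part of these marker differences in the results below was not tested.

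Ribosomal protein genes held a smaller share of the transcripts in every mutant library than in any WT library. The 85 members held 18.8, 17.4 and 17.7% of TPM in the Ring1a-KO libraries and 18.8, 18.1 and 18.9% in the Ring1b-KO libraries. They held 18.4, 18.1 and 17.8% in Ring1a/b-dKO, 16.1, 15.8 and 15.8% in the Pcgf-4KO libraries and 18.6, 17.1 and 15.5% in Pcgf-6KO, against 19.5, 19.2 and 19.5% in WT. The means were 17.95 ± 0.705, 18.6 ± 0.432, 18.1 ± 0.286, 15.9 ± 0.189 and 17.1 ± 1.58% in these 5 mutant groups, against 19.4 ± 0.155% in WT (SD, n = 3 each), so Pcgf-4KO was the lowest and the most even and Pcgf-6KO the most scattered. A share can be smaller because other transcripts are more abundant, and less RNA of these genes per cell, fewer cells that express them and more RNA of other genes cannot be told apart here. As a share of nuclear protein-coding TPM the members held 22.7% in Ring1a-KO, 23.4% in Ring1b-KO, 21.8% in Ring1a/b-dKO, 19.3% in Pcgf-4KO and 20.2% in Pcgf-6KO, against 24.001% in WT.

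**Figure D1:**
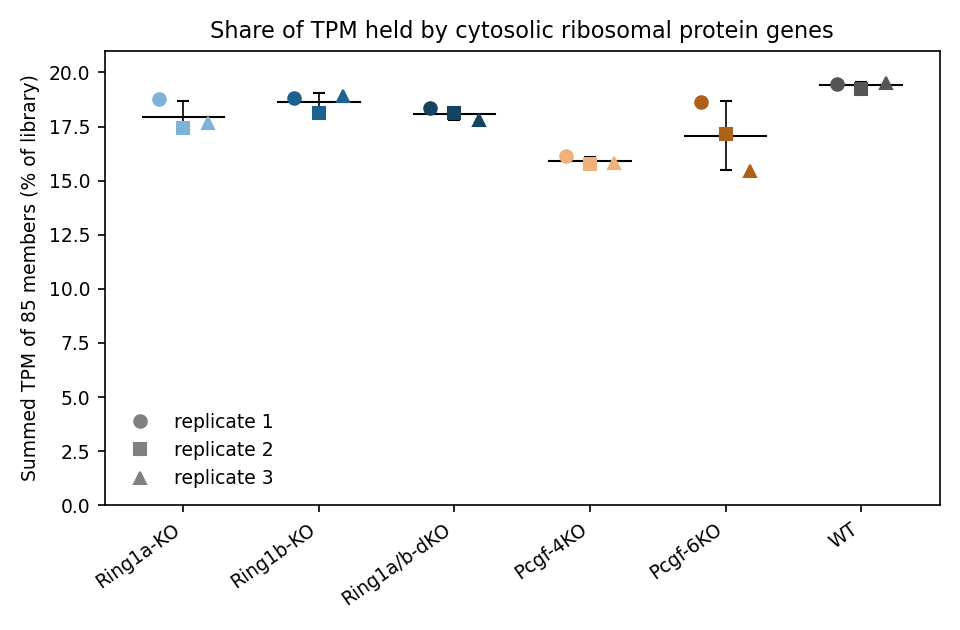
Share of TPM held by the 85 ribosomal protein genes, in percent, for each library (point shapes for replicates), with the group mean and SD (n = 3). All 15 mutant libraries lie below the 3 WT libraries, and the Pcgf-4KO libraries lie between 15.8 and 16.1%.

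Both subunits took part. Large subunit members other than the stalk held 9.37% of TPM in Ring1a-KO, 9.75% in Ring1b-KO, 9.59% in Ring1a/b-dKO, 8.52% in Pcgf-4KO and 9.08% in Pcgf-6KO, against 10.03% in WT. Small subunit members held 7.54, 7.85, 7.55, 6.57 and 7.12% in the same order, against 8.21% in WT. The ratio of large to small subunit TPM was 1.38 ± 0.0053, 1.37 ± 0.0035, 1.39 ± 0.0216, 1.42 ± 0.0062 and 1.40 ± 0.0224, against 1.36 ± 0.005 in WT (SD, n = 3 each). Every mutant library had a higher ratio than every WT library: the lowest in a mutant library was 1.3686 and the highest in WT 1.3659.

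Single members were tested with limma on log2(TPM + 1), with Benjamini-Hochberg adjustment over all 17842 genes tested, those reaching 1 TPM in 3 libraries or more, and called at an adjusted p under 0.05. The 5 comparisons with WT share the WT libraries. In Pcgf-4KO, 65 of 83 members fell and 3 rose, where 17.9% of all genes tested fell and 47.1% rose. In Pcgf-6KO, 43 fell and 9 rose, with 22.5 and 51.7% among all genes. In Ring1a/b-dKO, 38 fell and 5 rose, with 15.8 and 48.6% among all genes. In Ring1b-KO, 15 fell and 8 rose, with 17.1 and 34.7% among all genes, so the fallen members made up a share near that of all genes. In Ring1a-KO, 16 fell and 3 rose, with 10.8 and 12.3% among all genes. Counted without a test, all 3 mutant libraries lay below all 3 WT libraries for 45 members in Ring1a-KO, 33 in Ring1b-KO, 53 in Ring1a/b-dKO, 74 in Pcgf-4KO and 44 in Pcgf-6KO, where this held for 17.9, 21, 18.6, 20.6 and 22.7% of all genes tested. They lay above them for 5, 17, 11, 4 and 5 members, where this held for 20.6, 41.1, 53.3, 51 and 51.3% of all genes. The changes were small. None reached 2-fold in Ring1a-KO, where 1.69% of all genes were called and did, since the largest was 0.53 on the log2 scale. Elsewhere 2 in Ring1b-KO, 1 in Ring1a/b-dKO, 2 in Pcgf-4KO and 3 in Pcgf-6KO were both called and changed at least 2-fold, where 10.6, 19.9, 18.5 and 29.9% of all genes were.

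The Ring1a-KO count changed when libraries of either group were left out. Replicates 2 and 3 of Ring1a-KO had 1.43 and 0.754% of TPM in small RNA genes, against 0.134 to 0.405% in the other 16 libraries. Without both of them limma called 0 members lower and 1 higher, with 4 lower and 3 higher at an unadjusted p under 0.05, and Ring1a-KO replicate 1 was then assumed to vary like the other groups. Leaving out Ring1a-KO replicate 2 alone gave 7 called lower, WT replicate 1 gave 8, WT replicate 2 gave 10 and WT replicate 3 gave 8. With any single library left out the count ran from 7 to 24, so it also went above the 16 of the full fit. Leaving out Ring1a-KO replicate 3 or WT replicate 3 left 1 called higher. The small counts of members called higher also moved elsewhere, to 3 in Ring1a/b-dKO without its replicate 3, WT replicate 2 or WT replicate 3, and in Pcgf-6KO to 4 without its replicate 1 and 5 without its replicate 2.

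The counts depend on how the libraries are scaled. The median log2 difference of the members was −0.12 in Ring1a-KO, −0.03 in Ring1b-KO, −0.12 in Ring1a/b-dKO, −0.32 in Pcgf-4KO and −0.18 in Pcgf-6KO, where all genes tested had medians of 0.01, 0.13, 0.28, 0.25 and 0.33. Median ratio scaling moved the median of all genes to between −0.002 and 0.064, and quantile normalization to between −0.063 and −0.006. Relative to all genes, the members stood at −0.13, −0.17, −0.40, −0.57 and −0.51 in TPM and at −0.14, −0.19, −0.48, −0.63 and −0.57 with median ratio scaling. With quantile normalization, which forces equal distributions on all libraries and so on the most abundant genes, they stood at −0.10 in Ring1a-KO and −0.08 in Pcgf-4KO but at 0.09 in Ring1b-KO, 0.02 in Ring1a/b-dKO and 0.07 in Pcgf-6KO. With median ratio scaling 79 members fell and 1 rose in Ring1a/b-dKO, 79 fell and 2 rose in Pcgf-4KO, 75 fell and 4 rose in Pcgf-6KO, 35 fell and 4 rose in Ring1b-KO and 10 fell and 2 rose in Ring1a-KO. With quantile normalization 19 fell and 18 rose in Ring1a/b-dKO, 35 fell and 11 rose in Pcgf-4KO, 25 fell and 28 rose in Pcgf-6KO, 14 fell and 20 rose in Ring1b-KO and 19 fell and 2 rose in Ring1a-KO.

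**Figure D2:**
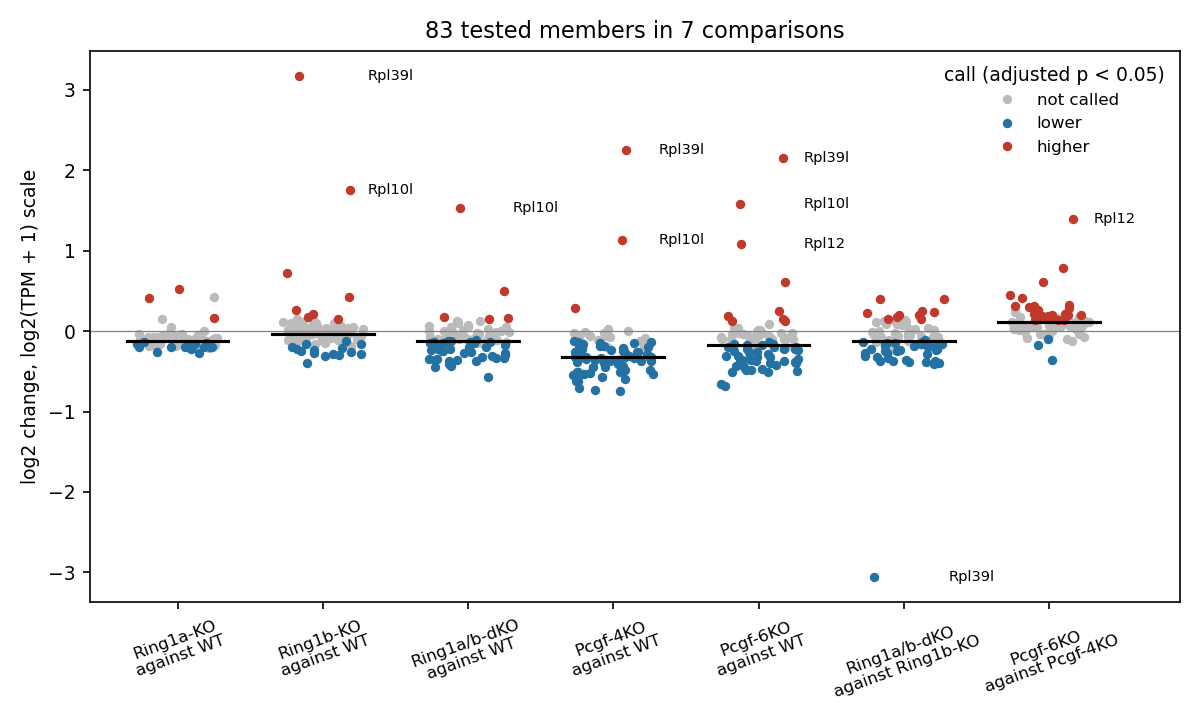
Log2 difference of each of the 83 tested members (points, coloured by call at an adjusted p under 0.05) in 7 comparisons on the log2(TPM + 1) scale, with black lines at the median. Against WT the median is lowest in Pcgf-4KO, at −0.32, while Rpl39l and Rpl10l stand far above the other members there.

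Of the 83 members, 28 were called lower in 3 of the 5 comparisons with WT, 10 in 4 and 2 in all 5, while 15 were lower in none. The matching shares of all genes were not counted, and repeated calls are not independent because the comparisons share the WT libraries. By subunit, 35 of 47 large subunit members, 27 of 33 small subunit members and 3 of 3 stalk members fell in Pcgf-4KO, and 20, 20 and 3 did in Pcgf-6KO. In Ring1a/b-dKO these counts were 21, 15 and 2, in Ring1b-KO 5, 8 and 2, and in Ring1a-KO 8, 7 and 1. Among the 77 usual genes 63 fell in Pcgf-4KO, and among the 6 tested paralogs 2 fell and 3 rose. Over all genes tested, 17.9% fell and 47.1% rose in Pcgf-4KO. The shares that fell were 22.5% in Pcgf-6KO, 15.8% in Ring1a/b-dKO, 17.1% in Ring1b-KO and 10.8% in Ring1a-KO.

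The stalk proteins recruit the GTPases that drive elongation, and Rplp2 fell in all 5 comparisons with WT, Rplp1 and Rplp0 in 3 each. Rplp2 (chromosome 7, 141447370 to 141451585, plus strand) had 1471, 1359 and 1311 TPM in Ring1a-KO, 1498, 1419 and 1394 TPM in Ring1b-KO, 1245, 1231 and 1211 TPM in Ring1a/b-dKO, 1120, 1082 and 1067 TPM in Pcgf-4KO and 1420, 1284 and 1156 TPM in Pcgf-6KO, against 1723, 1669 and 1623 TPM in WT. No mutant library reached the lowest WT library. Its log2 differences were −0.28, −0.22, −0.44, −0.62 and −0.38 (SE 0.06 each), with adjusted p of 0.00369, 0.00686, 1.02e-05, 2.85e-07 and 3.5e-05 (limma). They kept their direction under every scaling tried, and with quantile normalization the Ring1b-KO value (−0.13) was no longer called.

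Rplp1 (chromosome 9, 61913284 to 61914542, minus strand) had 6064, 5785 and 5307 TPM in Ring1a-KO and 5874, 5613 and 5901 TPM in Ring1b-KO, which did not pass the test, 4909, 4805 and 4681 TPM in Ring1a/b-dKO, 4471, 4267 and 4139 TPM in Pcgf-4KO and 5229, 4714 and 4181 TPM in Pcgf-6KO, against 6429, 6341 and 6396 TPM in WT. It fell by 0.41, 0.57 and 0.45 on the log2 scale in Ring1a/b-dKO, Pcgf-4KO and Pcgf-6KO (SE 0.065, adjusted p 4.5e-05, 1.47e-06 and 1.55e-05, limma), and the Pcgf-6KO call was lost with quantile normalization (−0.12). Rplp0, the base of the stalk (chromosome 5, 115559467 to 115563727, plus strand), had another pattern. It had 2904, 2890 and 2881 TPM in Ring1b-KO, 2750, 2672 and 2706 TPM in Pcgf-4KO and 2816, 2809 and 2610 TPM in Pcgf-6KO, against 3484, 3436 and 3661 TPM in WT, and it fell in these 3 groups by 0.29, 0.38 and 0.36 (SE 0.045). In Ring1a/b-dKO it had 3422, 3356 and 3362 TPM, a log2 difference of −0.06 ± 0.045 (SE, adjusted p = 0.249, limma). The double knockout lay above the single Ring1b knockout in Rplp0, by 0.225 ± 0.045 (SE, adjusted p = 0.00047), while it lay below it in Rplp1 by −0.27 ± 0.065 (adjusted p = 0.00207) and in Rplp2 by −0.225 ± 0.06 (adjusted p = 0.00475).

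Among small subunit members, Rpsa, whose protein sits near the mRNA exit, was the other gene called lower in all 5 comparisons. It had 1760, 1651 and 1636 TPM in Ring1a-KO, 1736, 1676 and 1616 TPM in Ring1b-KO, 1684, 1705 and 1698 TPM in Ring1a/b-dKO, 1519, 1512 and 1476 TPM in Pcgf-4KO and 1797, 1657 and 1481 TPM in Pcgf-6KO, against 1907, 1871 and 1860 TPM in WT. Its differences were small, −0.16, −0.17, −0.15, −0.32 and −0.20 (SE 0.05), and with quantile normalization they changed sign in Ring1a/b-dKO (0.04) and Pcgf-6KO (0.01). Rps13 had 760, 564 and 669 TPM in Ring1a/b-dKO, 620, 547 and 593 TPM in Pcgf-4KO and 827, 718 and 553 TPM in Pcgf-6KO, against 956, 1024 and 962 TPM in WT. It fell by 0.57, 0.74 and 0.51 on the log2 scale (SE 0.125, adjusted p 0.000864, 8.32e-05 and 0.00182, limma). Rps21 had 2224, 2079 and 2228 TPM in Ring1b-KO, 2192, 1982 and 1982 TPM in Ring1a/b-dKO, 1652, 1578 and 1563 TPM in Pcgf-4KO and 2278, 1974 and 1634 TPM in Pcgf-6KO, against 2601, 2574 and 2625 TPM in WT, and it fell in each of these 4 groups, by 0.70 in Pcgf-4KO (SE 0.09, adjusted p = 4.39e-06).

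Further small subunit members fell in Pcgf-4KO. Rps6, the substrate of the S6 kinases, had 2383, 2357 and 2393 TPM in Pcgf-4KO against 3033, 3019 and 3001 TPM in WT, a difference of −0.34 ± 0.04 (SE, adjusted p = 2.04e-06, limma). Rps27a and Fau encode ribosomal proteins made as fusions with ubiquitin and a ubiquitin-like protein. Rps27a had 1633, 1612 and 1594 TPM in Pcgf-4KO, against 2318, 2393 and 2290 TPM in WT, and was called lower in 4 of the 5 comparisons. Fau had 1170, 1099 and 1128 TPM in Pcgf-4KO, against 1451, 1454 and 1483 TPM in WT (−0.37 ± 0.07, SE), but 1587, 1432 and 1230 TPM in Pcgf-6KO, which spanned the WT libraries. Rps19, whose human counterpart is mutated in Diamond-Blackfan anaemia, and Rps14 passed the test against WT in none of the mutant groups: their log2 differences lay between −0.19 and 0.04 for Rps19 (SE 0.09) and between −0.19 and 0.10 for Rps14 (SE 0.09).

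Among large subunit members, Rpl3, which lies close to the peptidyl transferase centre, had 2238, 2095 and 2057 TPM in Ring1a-KO, 2143, 2036 and 2031 TPM in Ring1a/b-dKO, 1811, 1750 and 1740 TPM in Pcgf-4KO and 1704, 1675 and 1566 TPM in Pcgf-6KO, against 2325, 2334 and 2367 TPM in WT. It fell in these 4 groups, by 0.51 in Pcgf-6KO (SE 0.04, adjusted p = 8.12e-09, limma), while Ring1b-KO had 2463, 2440 and 2473 TPM (0.07 ± 0.04, adjusted p = 0.137). Rpl5 and Rpl11 bind 5S ribosomal RNA and, outside the ribosome, the p53 inhibitor MDM2. Rpl5 passed the test against WT in Ring1a/b-dKO, where it fell to 408, 372 and 367 TPM against 424, 445 and 426 TPM in WT (−0.18 ± 0.05), and Rpl11 in Pcgf-4KO, where it fell to 1819, 1837 and 1890 TPM against 2104, 2053 and 2011 TPM (−0.15 ± 0.06) on the TPM scale but stood at 0.11 with quantile normalization. Rpl38, known in mice for its part in translating Hox mRNAs, had 2969, 2985 and 2928 TPM in Pcgf-4KO against 3582, 3477 and 3402 TPM in WT (−0.24 ± 0.07, adjusted p = 0.00538).

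The 5 most abundant members were Rpl23a, Rpl13a, Rplp1, Rpl26 and Rps2, and Rplp1 had the falls given with the stalk genes. Rpl23a, the highest on average, had 5620, 5568 and 5650 TPM in Pcgf-4KO, against 7095, 7086 and 7112 TPM in WT (−0.34 ± 0.05, adjusted p = 7.4e-06, limma), and was called lower in 4 of the 5 comparisons. Rpl13a fell in Pcgf-4KO, to 5326, 5167 and 5030 TPM against 6189, 6333 and 6082 TPM in WT (−0.26 ± 0.07). Rpl26 (4652, 4495 and 4664 TPM in Pcgf-4KO against 5071, 4904 and 5174 TPM in WT) and Rps2 (4418, 4241 and 4179 TPM against 4362, 4309 and 4423 TPM) passed the test in none of the 5 comparisons with WT. Of the 77 usual genes, 76 stayed over 100 TPM in all 18 libraries, the exception being Rpl12 with a lowest value of 92.7 TPM.

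Several paralogs went the other way. Rpl39l (ENSMUSG00000039209, chromosome 16, 10170226 to 10174911, plus strand) encodes a copy of RPL39, a protein of the peptide exit tunnel, and in mice is known for its use in spermatids. It had 22.5, 19.7 and 20.5 TPM in Ring1b-KO, 11.8, 9.82 and 10.04 TPM in Pcgf-4KO and 9.46, 11.8 and 8.33 TPM in Pcgf-6KO, against 1.53, 1.34 and 1.38 TPM in WT. Ring1a/b-dKO had 1.40, 1.51 and 2.00 TPM, overlapping both Ring1a-KO (1.63, 2.61 and 2.51 TPM) and WT. The log2 differences on the log2(TPM + 1) scale were 3.18, 2.25 and 2.16 in Ring1b-KO, Pcgf-4KO and Pcgf-6KO (SE 0.14, adjusted p 4.58e-11, 1.17e-09 and 1.05e-09, limma), against 0.12 in Ring1a/b-dKO (adjusted p = 0.462). The double knockout lay 3.06 below Ring1b-KO (log2 difference −3.06 ± 0.14, adjusted p = 7.52e-11). Rpl39 itself had 504, 484 and 487 TPM in Pcgf-4KO and 596, 547 and 466 TPM in Pcgf-6KO, against 723, 713 and 670 TPM in WT, and fell by 0.51 and 0.40 (SE 0.09), so that Rpl39l stood at 2.14 and 1.84% of it, against 0.202% in WT. The Ring1a-KO value of 0.41 (adjusted p = 0.0394) was lost when any of WT replicates 1 to 3 or Ring1a-KO replicate 2 or 3 was left out.

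Rpl10l (ENSMUSG00000060499, chromosome 12, 66283379 to 66284401, minus strand) is an autosomal copy of the X-linked Rpl10 that is needed for male meiosis in mice. It had 23.8, 21.5 and 20.4 TPM in Ring1a-KO, 53, 52.6 and 51.7 TPM in Ring1b-KO, 48.0, 41.3 and 45.4 TPM in Ring1a/b-dKO, 37.6, 30.6 and 33.5 TPM in Pcgf-4KO and 51.6, 47.9 and 40.7 TPM in Pcgf-6KO, against 15.0, 13.8 and 15.8 TPM in WT. Every mutant library was above every WT library. The differences were 0.53, 1.75, 1.53, 1.13 and 1.58 (SE 0.09, adjusted p 0.000726, 5.08e-10, 1.06e-09, 3.38e-08 and 3.95e-10, limma). Rpl10 itself fell in Ring1a/b-dKO, Pcgf-4KO and Pcgf-6KO by 0.35, 0.45 and 0.37 (SE 0.08), so that the paralog stood at 2.21% of Rpl10 in Ring1a-KO, 4.801% in Ring1b-KO, 5.33% in Ring1a/b-dKO, 4.29% in Pcgf-4KO and 5.59% in Pcgf-6KO, against 1.38% in WT.

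Rps27l (ENSMUSG00000036781, chromosome 9, 66946086 to 66949516, plus strand), a known p53 target, and Rps27 (ENSMUSG00000090733, chromosome 3, 90212522 to 90213651, minus strand) encode near-identical small subunit proteins. Rps27l had 644, 586 and 712 TPM in Ring1a-KO, 939, 881 and 966 TPM in Ring1b-KO, 751, 725 and 690 TPM in Ring1a/b-dKO, 848, 832 and 859 TPM in Pcgf-4KO and 1140, 1047 and 1003 TPM in Pcgf-6KO, against 698, 720 and 664 TPM in WT. It rose by 0.42, 0.29 and 0.61 on the log2 scale in Ring1b-KO, Pcgf-4KO and Pcgf-6KO (SE 0.06, adjusted p 5.65e-05, 0.00105 and 3.94e-07, limma), and the Pcgf-4KO value was −0.03 with median ratio scaling. Rps27 had 3575, 3325 and 3871 TPM in Ring1a-KO, 3362, 3140 and 3490 TPM in Ring1b-KO, 3211, 3188 and 2794 TPM in Ring1a/b-dKO, 2388, 2175 and 2428 TPM in Pcgf-4KO and 2716, 2374 and 2149 TPM in Pcgf-6KO, against 3968, 3888 and 3745 TPM in WT. It fell by 0.22, 0.34, 0.73 and 0.69 in Ring1b-KO, Ring1a/b-dKO, Pcgf-4KO and Pcgf-6KO (SE 0.08). Per length, Rps27l was therefore 18.01% of Rps27 in Ring1a-KO, 27.9% in Ring1b-KO, 23.6% in Ring1a/b-dKO, 36.4% in Pcgf-4KO and 44.3% in Pcgf-6KO, against 17.9% in WT.

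**Figure D3:**
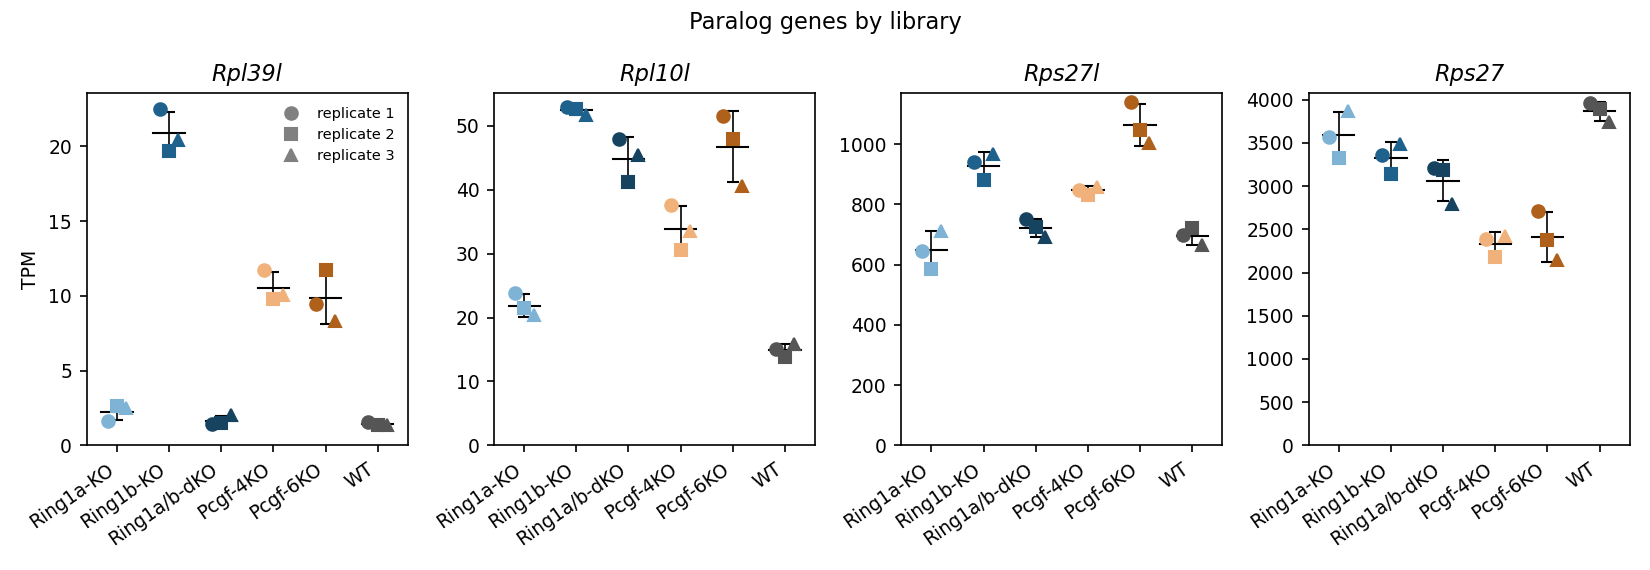
TPM of Rpl39l, Rpl10l, Rps27l and Rps27 in each library (points), with horizontal lines for the group mean and bars for the SD (n = 3). Rpl10l is above WT in every mutant group, Rpl39l is above 8 TPM in Ring1b-KO, Pcgf-4KO and Pcgf-6KO but at most 2.61 TPM elsewhere, and Rps27 is lowest and Rps27l above WT in the Pcgf mutants.

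Promoters are printed because in the Pcgf mutants these paralogs rose and their usual genes fell. They are those of Rpl39l, Rpl39, Rps27l, Rps27 and Rpl10l, without that of Rpl10. Each is the RefSeq window on GRCm38.p6 from 250 bases before to 50 bases after the annotated start, on the gene's strand, and capitals mark the motif CCGGAAG on either strand, a core of sites for ETS-family factors, and runs of 8 or more C or T within the stretch from 25 bases before to 50 after the start, where a TOP motif would lie. The windows are chr16:10169978-10170277 (plus strand), chrX:37085173-37085472 (minus), chr9:66945836-66946135 (plus), chr3:90213599-90213898 (minus) and chr12:66284352-66284651 (minus).
Rpl39l: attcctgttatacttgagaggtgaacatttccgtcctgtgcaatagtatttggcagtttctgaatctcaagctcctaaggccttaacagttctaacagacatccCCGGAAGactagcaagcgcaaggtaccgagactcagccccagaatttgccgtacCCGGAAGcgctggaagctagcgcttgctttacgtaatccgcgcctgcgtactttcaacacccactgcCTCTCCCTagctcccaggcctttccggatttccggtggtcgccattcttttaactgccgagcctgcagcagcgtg
Rpl39: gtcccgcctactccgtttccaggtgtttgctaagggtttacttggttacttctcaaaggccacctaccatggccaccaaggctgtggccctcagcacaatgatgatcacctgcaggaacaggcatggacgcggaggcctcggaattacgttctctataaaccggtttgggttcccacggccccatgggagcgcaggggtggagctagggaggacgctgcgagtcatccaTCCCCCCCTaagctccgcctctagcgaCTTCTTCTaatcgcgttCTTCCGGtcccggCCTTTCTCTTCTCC
Rps27l: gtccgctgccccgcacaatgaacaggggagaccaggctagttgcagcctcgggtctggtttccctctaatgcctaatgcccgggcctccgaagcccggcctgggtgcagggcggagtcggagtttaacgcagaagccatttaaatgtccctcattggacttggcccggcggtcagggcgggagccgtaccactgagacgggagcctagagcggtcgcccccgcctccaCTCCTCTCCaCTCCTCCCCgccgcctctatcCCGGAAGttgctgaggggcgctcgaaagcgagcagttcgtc
Rps27: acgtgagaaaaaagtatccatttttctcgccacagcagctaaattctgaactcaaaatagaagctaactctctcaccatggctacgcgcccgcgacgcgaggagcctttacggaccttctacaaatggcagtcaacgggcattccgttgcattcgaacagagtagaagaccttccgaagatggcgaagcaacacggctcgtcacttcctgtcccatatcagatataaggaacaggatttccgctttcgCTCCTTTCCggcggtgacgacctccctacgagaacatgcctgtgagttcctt
Rpl10l: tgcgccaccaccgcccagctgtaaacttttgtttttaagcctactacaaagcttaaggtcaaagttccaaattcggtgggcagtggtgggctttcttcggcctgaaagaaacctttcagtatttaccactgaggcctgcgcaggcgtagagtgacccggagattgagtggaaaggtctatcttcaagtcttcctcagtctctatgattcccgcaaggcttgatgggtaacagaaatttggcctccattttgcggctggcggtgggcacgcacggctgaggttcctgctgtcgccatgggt

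RefSeq promoter windows of 300 bases were found for 63 members, 57 of them usual genes and 6 paralogs. CCGGAAG, searched on both strands, was in 22 of the 57 usual windows (38.6%), against 9.12% of all 27025 windows of this length. A run of 8 or more C or T near the start was in 44 (77.2%), against 27.1% of all windows. The motif AAGATGGC, a core of YY1 sites, was in 5 (8.77%, against 2.88%) and TATAAA in 5 (8.77%, against 14.2%). The median window of a usual gene held 21 CG pairs, against 7 over all windows, so these shares also differ in base composition. The 6 paralog windows are not those of the 6 tested paralogs, since they include the untested pseudogene Rpl32l and lack Rps4l. Of these windows, 2 had CCGGAAG, 5 a pyrimidine run, 1 TATAAA and 0 AAGATGGC, and the Rpl10l window had neither of the capitalised features. The TATAAA and 1 of the 5 pyrimidine runs were in the Rpl32l window.

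The other paralog pairs gave smaller differences. Rpl36al had 739, 745 and 748 TPM in Ring1a/b-dKO and 712, 703 and 723 TPM in Pcgf-4KO, against 966, 962 and 962 TPM in WT (−0.37 and −0.43, SE 0.05), but 1032, 967 and 860 TPM in Pcgf-6KO (−0.02). Its X-linked partner Rpl36a had 958, 914 and 962 TPM in Pcgf-4KO and 1029, 928 and 826 TPM in Pcgf-6KO, against 1457, 1441 and 1467 TPM in WT (−0.62 and −0.65, SE 0.06), so Rpl36al was 102.8% of Rpl36a in Pcgf-6KO and 75.5% in Pcgf-4KO, against 66.3% in WT. Rps4l, annotated as a transcribed processed pseudogene, and the X-linked Rps4x fell together, by 0.30 and 0.18 in Ring1a/b-dKO, 0.32 and 0.38 in Pcgf-4KO, then 0.49 and 0.39 in Pcgf-6KO (SE 0.06 and 0.05). Rpl3l, a gene of heart and skeletal muscle, stayed between 0.48 and 2.44 TPM and was called higher in Ring1b-KO (0.73 ± 0.17) and in Ring1a/b-dKO (0.50 ± 0.17, but −0.03 with quantile normalization). Rpl22l1, which the rule leaves out, fell with its partner Rpl22: by 0.52, 0.93 and 1.07 for Rpl22l1 (SE 0.155) and by 0.23, 0.35 and 0.48 for Rpl22 (SE 0.06) in Ring1a/b-dKO, Pcgf-4KO and Pcgf-6KO. Rpl7l1, a factor related to Rpl7, was called higher in Ring1b-KO (0.21), Pcgf-4KO (0.13) and Pcgf-6KO (0.15), the last 2 of which turned to −0.18 and −0.17 with median ratio scaling, while Rpl7 fell by 0.34 in Pcgf-4KO and 0.26 in Pcgf-6KO (SE 0.04).

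The second pair of comparisons asked what further deletion changed within each series of mutants. Against Ring1b-KO, 38 members fell and 10 rose in Ring1a/b-dKO, where 18.8% of all genes fell and 41.1% rose. With median ratio scaling 60 fell and 2 rose, and with quantile normalization 27 fell and 17 rose. Against Pcgf-4KO, 28 members (33.7%) rose and 3 fell in Pcgf-6KO, where 28.8% of all genes rose and 24% fell. The risen members thus made up a share near that of all genes. The 28 became 54 without Pcgf-6KO replicate 3 and 17 without Pcgf-6KO replicate 1, and the 3 became 5 without Pcgf-6KO replicate 1 and 1 without Pcgf-6KO replicate 3 or Pcgf-4KO replicate 1. The members' share of TPM in the Pcgf-6KO libraries ran from 15.5 to 18.6%, wider than in any other group. Rps20, for example, had 535, 469 and 357 TPM in Pcgf-6KO, against 290, 288 and 302 TPM in Pcgf-4KO (0.61 ± 0.11, SE, adjusted p = 0.000278, limma).

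Rpl12 was higher in Pcgf-6KO than in Pcgf-4KO by its own TPM. Rpl12 (ENSMUSG00000038900, chromosome 2, 32961559 to 32965345, plus strand), a protein at the base of the stalk, had 263, 265 and 234 TPM in Pcgf-6KO, against 96.3, 97.5 and 92.7 TPM in Pcgf-4KO, with 117, 118 and 123 TPM in WT. It was higher in Pcgf-6KO by 1.40 ± 0.06 than in Pcgf-4KO (SE, adjusted p = 6.53e-11, limma) and by 1.08 ± 0.06 than in WT (adjusted p = 1.65e-10). It was lower in Ring1a/b-dKO, at 112, 101 and 99.7 TPM, than in Ring1b-KO, at 141, 133 and 140 TPM (−0.41 ± 0.06, adjusted p = 2.37e-05). Reads of Rpl12 may be shared with copies: 49.0% of the 50-base words of its longest transcript occur in other annotated transcripts, among them Gm10275, a transcribed processed pseudogene with a mean of 3010 TPM. Rpl12 and the genes that share its sequence together had 2720 ± 179 TPM in Pcgf-6KO and 2658 ± 38.9 TPM in Pcgf-4KO, against 3499 ± 22.1 TPM in WT (SD, n = 3). Gm10275 makes up most of this sum, whose SD in Pcgf-6KO is of the size of Rpl12's own TPM. The sum therefore cannot show whether the gene's own difference between the Pcgf mutants is real. Because reads may be shared, the value for Rpl12 alone is uncertain.

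**Figure D4:**
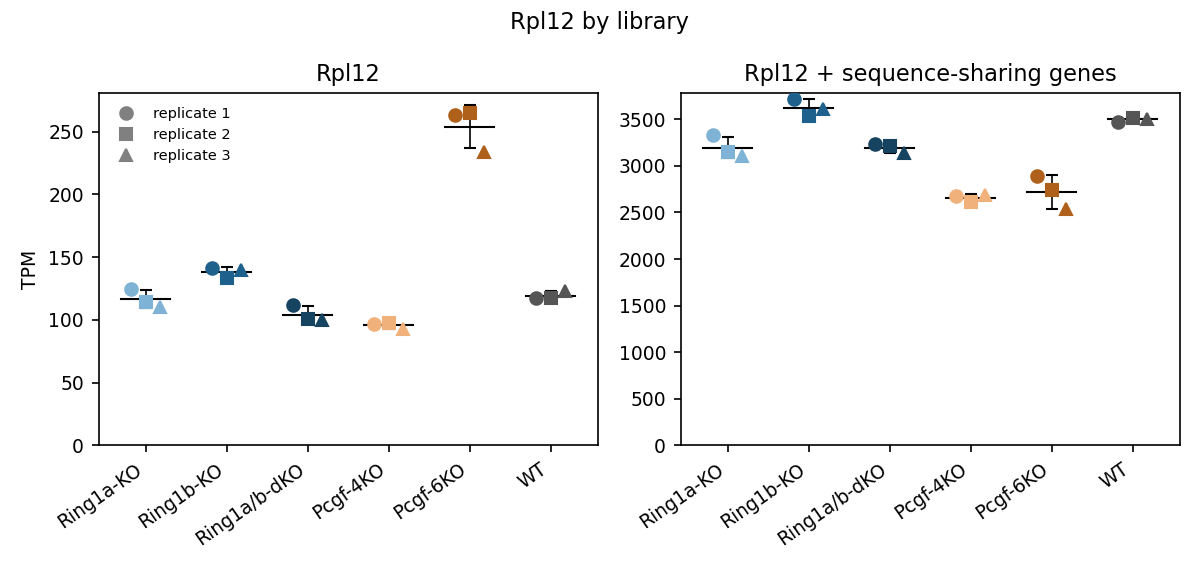
TPM of Rpl12 and of Rpl12 summed with the genes that share its sequence in each library (points) with group means and SD (n = 3). Rpl12 is above 230 TPM in Pcgf-6KO alone, where the sum is at 2720 TPM against 3499 TPM in WT.

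Shared sequence touches many members. The median member had 40.1% of the 50-base words of its longest transcript in other annotated transcripts, 29 of 85 had over 50%, 10 had under 10%, and for 11 the sharing genes had more TPM than the member. Besides Rpl12, these 11 include Rpl5 (sharing genes 1918 TPM, member 416 TPM), Rpl10 (1424 and 939 TPM), Rpl36a (1872 and 1229 TPM) and Rps13 (1029 and 790 TPM). Their single values, and the paralog ratios taken to Rpl10 and Rpl36a, are therefore uncertain as well. In Pcgf-4KO, 24 of the 28 tested members with over 50% fell and 0 rose, with the same 24 and 0 in limma at an unadjusted p under 0.05, and of the 55 others 41 fell and 3 rose. In Pcgf-6KO the same counts were 20 lower and 1 higher of 28, and 23 lower and 8 higher of 55. Among all genes tested, 17.9% fell and 47.1% rose in Pcgf-4KO, and 22.5% fell and 51.7% rose in Pcgf-6KO. Rpl39l shared 0%, Rpl10l 7.6% and Rps27l 13.7%, against 63.1% for Rps27.

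Members on chromosomes 16 and 6 are set here beside the other genes of their chromosomes, a comparison chosen after the values had been seen. Over 284 other nuclear protein-coding genes of chromosome 16 with a mean of at least 10 TPM, the median log2 difference from WT, minus that of all such genes, was 0.23 in Ring1a-KO, −0.23 in Ring1b-KO, 0.26 in Ring1a/b-dKO, 0.27 in Pcgf-4KO and 0.30 in Pcgf-6KO. Over chromosomes other than 16 this median lay between −0.14 and 0.10, except for chromosome 6 in Pcgf-6KO, at −0.34 over 347 genes. In single libraries these other medians ran from −0.165, for chromosome 13 in a Ring1a/b-dKO library, to 0.128, for chromosome 19 in a Pcgf-6KO library. By library, chromosome 16 stood at 0.20 to 0.25 in Ring1a-KO, −0.24 to −0.22 in Ring1b-KO, 0.24 to 0.27 in Ring1a/b-dKO, 0.26 to 0.28 in Pcgf-4KO and 0.27 to 0.31 in Pcgf-6KO, against −0.01 to 0.01 in WT, so the groups of WT and of each mutant did not overlap.

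Rpl24 (chromosome 16, 55966275 to 55971435, plus strand), a protein at the bridge between the subunits, had 1867, 1756 and 1867 TPM in Ring1b-KO, against 2420, 2446 and 2349 TPM in WT, and fell by 0.40 (SE 0.05, adjusted p = 1.08e-05, limma). In Ring1a-KO it had 2682, 2458 and 2857 TPM, and in Ring1a/b-dKO 2448, 2417 and 2390 TPM, neither of which passed the test against WT. Rpl35a (chromosome 16, 33056453 to 33060189, plus strand), whose human counterpart is mutated in Diamond-Blackfan anaemia, had 3069, 2888 and 3079 TPM in Ring1a-KO, 2340, 2162 and 2245 TPM in Ring1b-KO and 2973, 3008 and 2912 TPM in Ring1a/b-dKO, against 2721, 2689 and 2627 TPM in WT. It rose by 0.17 in Ring1a-KO and 0.15 in Ring1a/b-dKO and fell by 0.25 in Ring1b-KO (SE 0.05), and the Ring1a/b-dKO value was −0.20 with median ratio scaling. Relative to the median of the members in the same library, Rpl35a stood at 0.26 to 0.36 in Ring1a-KO, −0.25 to −0.21 in Ring1b-KO, 0.24 to 0.29 in Ring1a/b-dKO, 0.26 to 0.33 in Pcgf-4KO and 0.29 to 0.32 in Pcgf-6KO, against −0.04 to 0.02 in WT. Rpl24 stood at 0.185 to 0.405 in Ring1a-KO, −0.40 to −0.33 in Ring1b-KO, 0.12 to 0.13 in Ring1a/b-dKO, 0.09 to 0.13 in Pcgf-4KO and 0.09 to 0.23 in Pcgf-6KO, against −0.045 to 0.039 in WT, so in Ring1a/b-dKO and the Pcgf mutants it lay below its chromosome. Between Ring1a/b-dKO and Ring1b-KO both genes differed by 0.40 (SE 0.05), and the other genes of the chromosome by a median of 0.51 more than all genes.

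Rpl32 (chromosome 6, 115805505 to 115808747, minus strand), a large subunit protein, had 2672, 2513 and 2316 TPM in Pcgf-6KO, against 3254, 3194 and 3164 TPM in Pcgf-4KO and 3568, 3456 and 3440 TPM in WT. It fell by 0.36 against Pcgf-4KO (SE 0.05, adjusted p = 9.33e-06, limma), where the median of other genes of chromosome 6 was −0.37, and by 0.48 against WT (adjusted p = 1.23e-07), where that median was −0.13. Taken relative to all genes, these chromosome medians were −0.325 and −0.34. By library, chromosome 6 stood at −0.38 to −0.31 from WT in Pcgf-6KO relative to all genes. Relative to the median of the members, Rpl32 stood at −0.32 to −0.29 there and Rps4l at −0.325 to −0.31. Rps4l, the other member on chromosome 6, fell by 0.18 in Pcgf-6KO against Pcgf-4KO (SE 0.06, adjusted p = 0.0224, limma) and by 0.49 against WT. The rise of Rpl39l, also on chromosome 16, was far larger than the median of its chromosome and went the other way in Ring1b-KO. Other genes of chromosome 11, which holds 7 members, had medians against WT of −0.13 in Ring1b-KO and 0.10 in Ring1a/b-dKO, both relative to all genes. DNA copy number was not measured, and the part of the chromosome-wide differences in these members was not tested. Without the 12 members on chromosomes 6, 11 and 16, 58 of 71 fell and 2 rose in Pcgf-4KO, 38 and 6 in Pcgf-6KO, 34 and 3 in Ring1a/b-dKO, 11 and 7 in Ring1b-KO and 14 and 1 in Ring1a-KO. Among all genes tested, 17.9, 22.5, 15.8, 17.1 and 10.8% fell and 47.1, 51.7, 48.6, 34.7 and 12.3% rose in the same order. The Ring1b-KO falls were again near the share of all genes.

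**Figure D5:**
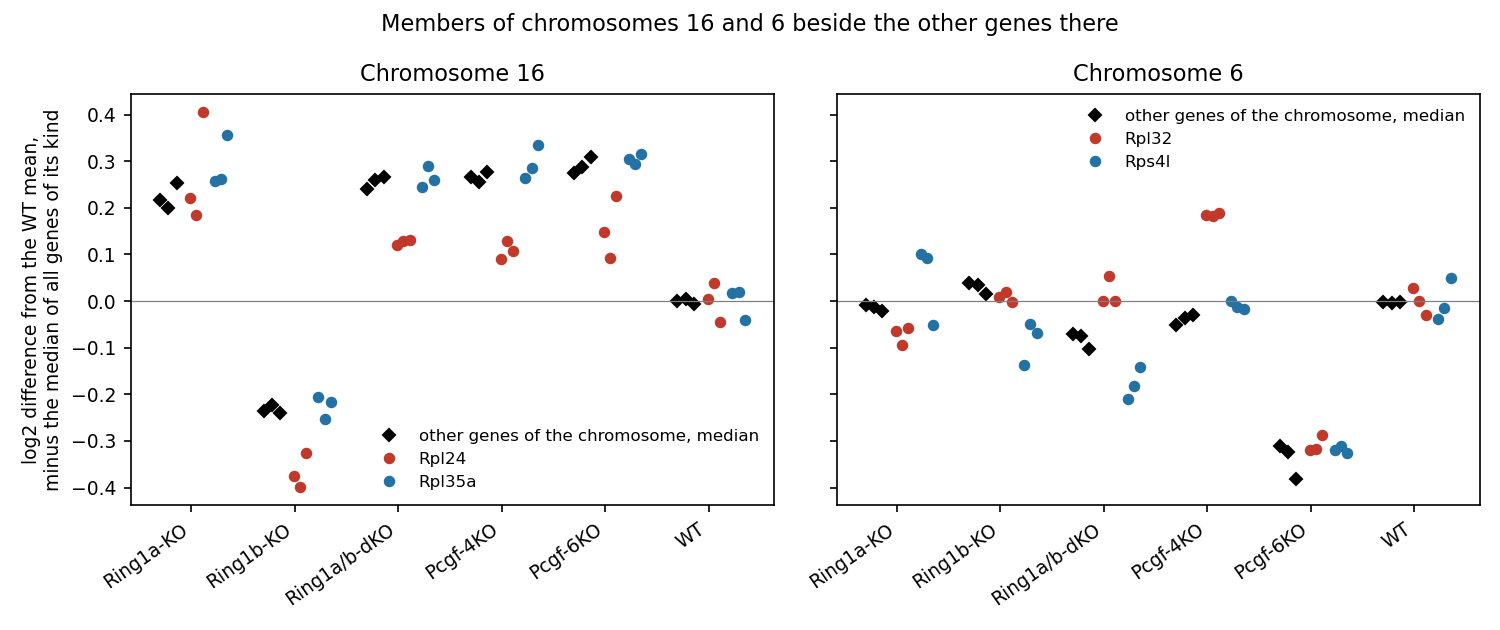
Log2 difference from the WT mean for each library. Left, chromosome 16: other genes of the chromosome relative to all other genes (black diamonds) and Rpl24 and Rpl35a relative to the median of the tested members (red and blue); right, the same for chromosome 6 with Rpl32 and Rps4l. Ring1b-KO alone is below WT on chromosome 16, and the other genes of chromosome 6 are far below WT in Pcgf-6KO alone.

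Other genes of ribosome production and translation were counted by list, as rises and falls in Ring1a-KO, Ring1b-KO, Ring1a/b-dKO, Pcgf-4KO and Pcgf-6KO against WT, and 12.3, 34.7, 48.6, 47.1 and 51.7% of all genes rose while 10.8, 17.1, 15.8, 17.9 and 22.5% fell. Of 28 elongation factors and other TOP mRNAs, 13, 12, 15, 22 and 20 fell and 0, 4, 2, 2 and 2 rose (limma, where the 0 is 1 at an unadjusted p under 0.05). Their medians were −0.12, −0.04, −0.14, −0.25 and −0.21, against 0.01, 0.13, 0.28, 0.25 and 0.33 over all genes, and they stayed below 0 with median ratio scaling and quantile normalization. Eef1b2, an elongation factor subunit, averaged 760 ± 8.19 TPM in Pcgf-4KO, against 1323 ± 14.9 TPM in WT (SD, n = 3), a difference of −0.80 ± 0.08 (SE, adjusted p = 4.93e-07, limma). Npm1, a nucleolar chaperone, averaged 3453 ± 53.9 TPM in Pcgf-6KO against 6241 ± 77.3 TPM in WT (−0.85 ± 0.04, adjusted p = 1.92e-11).

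Of 17 proteins of the snoRNPs that modify ribosomal RNA, 6, 9, 13, 11 and 13 fell and 0, 2, 2, 2 and 3 rose (limma, with 0 in Ring1a-KO also at an unadjusted p under 0.05), with medians of −0.09, −0.18, −0.31, −0.33 and −0.41 that kept their sign under both scalings. Dkc1, the H/ACA pseudouridine synthase, averaged 88.6 ± 5.1 TPM in Pcgf-4KO and 77.9 ± 4.91 TPM in Pcgf-6KO, against 169 ± 11.4 TPM in WT (SD, n = 3), and fell by 0.92 and 1.11 on the log2 scale (SE 0.06). Of 23 cytosolic aminoacyl-tRNA synthetases, 7, 7, 15, 14 and 15 fell and 0, 4, 1, 1 and 2 rose, again with 0 in Ring1a-KO in limma at an unadjusted p under 0.05. Vars, the valyl-tRNA synthetase, averaged 75.7 ± 2.9 TPM in Pcgf-4KO and 60.3 ± 3.61 TPM in Pcgf-6KO, against 123 ± 1.5 TPM in WT.

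The lists of assembly factors and polymerases were mixed. Of 45 small subunit assembly factors, 15, 12, 19, 11 and 17 fell and 0, 6, 11, 18 and 19 rose (limma, with 0 in Ring1a-KO also at an unadjusted p under 0.05), and of 52 large subunit assembly factors 17, 18, 25, 14 and 22 fell and 1, 6, 8, 17 and 18 rose. Their medians in Pcgf-4KO, 0.07 and −0.01, were −0.24 and −0.32 with median ratio scaling, and −0.14 and −0.10 with quantile normalization. Of 20 genes of the RNA polymerase I machinery, 2, 5, 7, 6 and 9 fell and 1, 5, 3, 5 and 7 rose. Of 14 snoRNA host genes, 1, 2, 4, 7 and 3 fell and 1, 5, 4, 3 and 9 rose: Snhg15 averaged 827 ± 97.9 TPM in Pcgf-6KO against 61.6 ± 1.45 TPM in WT (SD, n = 3; log2 difference 3.72 ± 0.07, SE), while Snhg5 fell in all 5 comparisons, to 65.5 ± 3.09 TPM in Pcgf-4KO against 132 ± 2.05 TPM in WT.

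In the Pcgf mutants, the lists of mitochondrial and proteasome genes had at least as many rises as falls, which also held for all genes tested. Of all genes, 47.1% rose and 17.9% fell in Pcgf-4KO, and 51.7% rose and 22.5% fell in Pcgf-6KO. Of 78 mitochondrial ribosomal proteins, 24, 12, 20, 18 and 20 fell and 3, 23, 24, 34 and 38 rose; of 80 nuclear-encoded respiratory chain subunits 10, 3, 22, 19 and 16 fell and 4, 37, 28, 32 and 35 rose; and of 38 proteasome subunits 19, 9, 9, 8 and 15 fell and 1, 7, 15, 19 and 15 rose. In Pcgf-4KO their medians of 0.12, 0.06 and 0.14 turned to −0.19, −0.25 and −0.17 with median ratio scaling. Of 18 mTORC1 pathway genes and TOP-binding regulators, 3, 3, 1, 2 and 6 fell and 1, 2, 4, 8 and 8 rose, and Larp1, which binds TOP mRNAs, averaged 82.4 ± 12.02 TPM in Pcgf-6KO against 137 ± 1.57 TPM in WT (−0.73 ± 0.07, adjusted p = 2.17e-07, limma).

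Of 11 genes of the Myc family, whose MYC proteins activate ribosomal protein genes, 1, 4, 3, 5 and 5 fell and 1, 3, 5, 3 and 5 rose. Mycn averaged 186 ± 6.56 TPM in Ring1a-KO, 32.5 ± 1.99 TPM in Ring1b-KO, 22.6 ± 0.18 TPM in Ring1a/b-dKO, 16.8 ± 1.66 TPM in Pcgf-4KO and 9 ± 0.2 TPM in Pcgf-6KO, against 211 ± 1.78 TPM in WT (SD, n = 3 each). It fell in all 5 comparisons, by 0.18, 2.66, 3.17, 3.57 and 4.41 on the log2 scale (SE 0.06; adjusted p 0.0341, 3.7e-14, 2.01e-15, 3.79e-16 and 1.53e-17, limma). Myc averaged 16.4 ± 0.71 TPM in Ring1b-KO, 30.1 ± 1.86 TPM in Pcgf-4KO and 21.2 ± 1.57 TPM in Pcgf-6KO, against 41.1 ± 4.01 TPM in WT.

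Of 12 genes of ribosomal stress and the p53 response, 7, 10, 10, 10 and 12 rose and 0, 2, 1, 0 and 0 fell (limma, where the zeros are 1, 0 and 0 at an unadjusted p under 0.05), with medians of 0.24, 0.67, 1.28, 1.54 and 1.92 that stayed positive under both scalings. Cdkn1a, the p53 target that arrests the cell cycle, averaged 30.9 ± 1.04 TPM in Ring1a-KO, 46.4 ± 1.52 TPM in Ring1b-KO, 102 ± 2.71 TPM in Ring1a/b-dKO, 111 ± 1.12 TPM in Pcgf-4KO and 261 ± 12.1 TPM in Pcgf-6KO, against 26.3 ± 0.53 TPM in WT (SD, n = 3 each). Mdm2 averaged 282 ± 4.39 TPM in Pcgf-4KO and 502 ± 71.6 TPM in Pcgf-6KO, against 64.5 ± 1.62 TPM in WT. Trp53 itself averaged 371 ± 4.85 and 387 ± 12.7 TPM in these groups, against 354 ± 8.38 TPM.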

How the data were processed

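TPM per gene was deposited by the authors for 18 libraries and 56551 genes, with the build GRCm38.p5 and the tools RSEM, edgeR and TopHat2 2.1.1, in no stated role, per the submitters' processing notes. Per the labels' protocols, total RNA from trypsinised cells in Trizol went into a TruSeq RNA kit, and strand handling is not given in the sources used here. The depth of each library is unknown. The 6 columns of group means were not used. Symbols were found for 55141 genes. Gene positions are those of GENCODE on GRCm38.

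The 17842 genes that reached 1 TPM in 3 libraries or more entered the test on log2(TPM + 1), a scale that understates changes of low genes, with limma 3.58.1 in R 4.3.3: 1 mean per group over all 18 libraries, a trended spread, two-sided tests and Benjamini-Hochberg adjustment within each of 7 comparisons. The procedure was tested on simulated data. Shares, ratios and list medians are given without a test. Alternatives changed the pseudocount (0.1), the filter, the scaling, the libraries fitted and the replicates, and the closing section gives their effect. Libraries with the same replicate number did not deviate together (correlations of −0.109 to 0.071), so the numbers do not pair them.

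The members and lists were chosen with earlier results of these data known. Members were named as paralog pairs, the 5 most abundant, up to 4 of the largest called rises and falls per comparison without overlap between groups, a set of well-studied members, and those farthest from the summed members. The chromosome comparison was added after the values were seen. Sequence sharing counted the 50-base words of a member's longest coding or pseudogene transcript found in transcripts of other annotated genes. Shorter transcript forms were not counted, so a long form can lower the share, as for Rps15a (5179 bases, 6.28%). Antisense or overlapping genes were not separated. The values of some single genes are not reported here, though the counts include them.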

Additional observations from a re-analysis of the deposited data

Results flagged for a closer look

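Members whose difference between mutant groups was itself tested, and went opposite ways against WT, were the following. Rpl12 had a log2 difference of −0.41 between Ring1a/b-dKO and Ring1b-KO, being lower than WT in the double knockout (−0.20) and higher in the single (0.21). Rpl35a had a difference of 0.40 in the same comparison, being higher than WT in Ring1a/b-dKO (0.15) and lower in Ring1b-KO (−0.25). Rpl12 had a difference of 1.40 between Pcgf-6KO and Pcgf-4KO, being higher than WT in Pcgf-6KO (1.08) and lower in Pcgf-4KO (−0.32). The Rpl12 values stand beside a pseudogene that shares its sequence, and the Rpl35a value beside a difference of its whole chromosome, and neither was tested as a source of them.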

How the results depend on the processing

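The counts moved with the scaling of the libraries; the cause was not tested. Scaled to equal summed members, 6 members rose and 5 fell in Ring1a-KO, 24 rose in Ring1b-KO, 21 rose and 24 fell in Ring1a/b-dKO, 23 and 27 in Pcgf-4KO, 32 and 28 in Pcgf-6KO, 18 rose in Ring1a/b-dKO against Ring1b-KO, and 17 rose and 15 fell in Pcgf-6KO against Pcgf-4KO. With median ratio scaling 10 fell in Ring1a-KO, 4 rose and 35 fell in Ring1b-KO, 1 and 79 in Ring1a/b-dKO, 4 and 75 in Pcgf-6KO, 2 and 60 in Ring1a/b-dKO against Ring1b-KO, and 1 fell in Pcgf-6KO against Pcgf-4KO. With quantile normalization 20 rose in Ring1b-KO, 18 rose and 19 fell in Ring1a/b-dKO, 11 and 35 in Pcgf-4KO, 28 and 25 in Pcgf-6KO, 17 rose in Ring1a/b-dKO against Ring1b-KO and 6 fell in Pcgf-6KO against Pcgf-4KO. With nuclear protein-coding genes only 16 rose in Ring1b-KO, and with no filter 9 fell in Ring1a-KO. In fits of the 2 groups compared alone, 7 fell in Ring1a-KO, 15 rose and 30 fell in Ring1b-KO, 5 rose in Pcgf-6KO, and 12 rose and 1 fell in Pcgf-6KO against Pcgf-4KO. Without Ring1a-KO replicates 2 and 3 together 1 rose and 0 fell there (limma, 3 and 4 at an unadjusted p under 0.05). Without members on chromosomes 6, 11 and 16, an alternative chosen after seeing the data, 1 rose in Ring1a-KO, 3 in Ring1a/b-dKO and 5 in Ring1a/b-dKO against Ring1b-KO, and 1 fell in Pcgf-6KO against Pcgf-4KO.

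Leaving out 1 library at a time gave 1 to 3 higher and 7 to 24 lower in Ring1a-KO, 3 to 4 higher in Ring1a/b-dKO, 4 to 10 higher in Pcgf-6KO, and 17 to 54 higher and 1 to 5 lower in Pcgf-6KO against Pcgf-4KO. With the replicate number as a block 2 rose and 17 fell in Ring1a-KO, 10 and 15 in Ring1b-KO, 6 and 42 in Ring1a/b-dKO, 3 and 66 in Pcgf-4KO, 9 and 45 in Pcgf-6KO, 10 and 37 in Ring1a/b-dKO against Ring1b-KO, and 29 and 3 in Pcgf-6KO against Pcgf-4KO, and no count moved by over 1.5 times.

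The members' share within nuclear protein-coding TPM was 22.7% in Ring1a-KO, 23.4% in Ring1b-KO, 21.8% in Ring1a/b-dKO, 19.3% in Pcgf-4KO and 20.2% in Pcgf-6KO, against 24.001% in WT. Of all TPM, the members and -ps copies together held 19.4% in Ring1a-KO, 20.1% in Ring1b-KO and 19.5% in Ring1a/b-dKO. They held 17.2% in Pcgf-4KO and 18.4% in Pcgf-6KO, against 21.01% in WT, where the members alone held 19.4%.

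Single log2 differences that changed sign did so under scaling. With median ratio scaling these were, in Ring1a/b-dKO, Rpl23 −0.16, Rpl35a −0.20 and Rpl41 −0.18, in Pcgf-4KO Rpl7l1 −0.18 and Rps27l −0.029, in Pcgf-6KO Rpl19 −0.20, Rpl35a −0.19, Rpl41 −0.18 and Rpl7l1 −0.17, and in Ring1a/b-dKO against Ring1b-KO Rpl23a −0.056. With quantile normalization they were, in Ring1a/b-dKO, Rpl23a 0.21, Rpl3l −0.03 and Rpsa 0.038, in Pcgf-4KO Rpl11 0.11, Rpl13a 0.088, Rpl15 0.019, Rpl32 0.063 and Rps16 0.03, and in Pcgf-6KO Rpl13a 0.15, Rpl23a 0.21, Rps16 0.071, Rps6 0.004 and Rpsa 0.006. With equal summed members they were, in Pcgf-4KO, Rpl11 0.13, Rpl13a 0.026, Rpl15 0.045, Rpl24 0.088, Rpl31 0.028, Rpl32 0.165, Rpl38 0.051 and Rps16 0.073, and in Pcgf-6KO Rps16 0.033 and Rps6 0.011. Of the other values of single genes, 2044 kept their direction and call and 282 kept their direction and lost the call. TPM without depth limits what can be said of members near 0.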

Other observations

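Copies of ribosomal protein genes with -ps names lie outside the rule, and 57 of 301 passed the filter. Rpl17-ps10 averaged 267 ± 39.2 TPM in Pcgf-6KO and 50.5 ± 3.07 TPM in Pcgf-4KO, against 39.8 ± 4.41 TPM in WT (SD, n = 3 each). Rps12-ps3 averaged 494 ± 52.4 TPM in Ring1a-KO, 341 ± 61.2 TPM in Ring1b-KO, 292 ± 59.0 TPM in Ring1a/b-dKO, 291 ± 32.8 TPM in Pcgf-4KO and 349 ± 140.1 TPM in Pcgf-6KO, against 598 ± 13.8 TPM in WT. Of the 50-base words of Rps12 (mean 3996 TPM), 83.2% occur in Rps12-ps3, and 30.1% of those of Rpl17 occur in Rpl17-ps10. Reads may be shared with these members, so the values of both copies are uncertain. Rpl39-ps was listed at 22.8 TPM in 1 Pcgf-6KO library and 90.6 TPM in 1 WT library, and at 0 in the other 16.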
